A study of Mus musculus with 8 samples.

Results

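The olfactory receptor genes of mouse chromosome 9 were followed through 16 lists of histone acetylation peaks from the small intestine. They were chosen by name and place: RefSeq protein-coding genes (GRCm38) on chromosome 9 whose symbol is Olfr followed by a number, or Or followed by a digit. This gave 129 genes of the 21887 protein-coding genes on chromosomes 1 to 19, X and Y. A further 977 olfactory receptor genes lay on other chromosomes, and 1072 other protein-coding genes lay on chromosome 9. No peak value entered the choice of the genes. A gene was counted as marked in a list when that list had a peak no farther than 1 kb from its start or its end coordinate, on either side.

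Olfactory receptors are G protein-coupled receptors that detect odorants, and each olfactory sensory neuron expresses a single receptor allele out of this very large family. The genes sit side by side in AT-rich clusters that are packed into repressive chromatin in most cells. Acetylation of histone H3 at lysine 27 (H3K27ac) and at lysine 9 (H3K9ac) marks promoters and enhancers in use. Expression was not measured here, so silence of the receptor genes was not tested. Their share with a peak served as a measure of background calls in each list, and whether any single call was background was not tested.

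The marks were mapped by CUT&Tag, in which an antibody guides a transposase to chromatin that carries the mark and the tagged DNA is sequenced. Crypts, the glandular pits that hold the intestinal stem cells, came from the small intestine of 9-week-old male C57BL/6J mice. The labels give 4 groups: Fed without tetracycline, Fast without tetracycline, Fed with tetracycline and Fast with tetracycline, where fasting lasted 24 h and the antibiotic was given for 21 days. Each group and mark had 1 sample, so there were 8 samples, and for each of them 2 lists were deposited, whose numbers 1 and 2 stand in their names alone. The labels do not say whether lists 1 and 2 came from different mice. Each p-value of a test over lists below thus measures the spread between lists, which may be technical. Sign-flip tests and the test with lists averaged used 1 value per sample or pair of samples. Their spread runs across groups with 1 sample each. Labels gave mouse IgG for the H3K27ac samples and rabbit IgG for the H3K9ac samples, so the mark and this reagent cannot be told apart.

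Lists held 32392 to 68545 peaks for H3K27ac and 17249 to 99050 for H3K9ac, and their read depth is unknown. All 14 epithelial markers on the list used (Vil1, Epcam and Cdx2 among them) were marked in every H3K27ac list, and 12 to 14 of them in every H3K9ac list. Crypt markers varied more, with 2 to 9 of 10 marked per H3K27ac list and 3 to 8 per H3K9ac list. Of these, Pcna was marked in 8 lists of each mark, and Lgr5 in 1 H3K27ac and 2 H3K9ac lists. Leukocyte markers had 2 to 6 of 10 marked per H3K27ac list and 1 to 4 of 10 per H3K9ac list. Cd79a among them was marked in 8 H3K27ac and 3 H3K9ac lists, and Adgre1 in 0 of either. Stromal markers had 0 to 1 of 10 and 0 to 4 of 10 marked. Neuronal and glial markers had 0 to 2 of 10 marked per H3K27ac list and 1 to 5 of 10 per H3K9ac list. Among these, Omp, the defining protein of mature olfactory neurons, was marked in 1 H3K27ac list and 2 H3K9ac lists. In such bulk samples, fewer cells that carry a mark and less of the mark per cell cannot be told apart.

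The receptor genes formed 2 clusters, taken as runs with gaps of at most 200 kb. The first, chr9:18754692-20336094, held 35 of the genes in 1581.4 kb. The second, chr9:37711348-40188094, held 94 genes in 2476.7 kb. Together they spanned 4.06 Mb, or 3.34% of the chromosome from its first peak in any list to its last peak or gene end. Their genes were short, with a median annotated length of 948 bp and a range from 918 to 23752 bp. In 86 of the 129 the length was a multiple of 3 and under 1100 bp, as it would be for a coding span with nothing annotated around it. Whether these 86 are coding spans alone was not tested. Only 1 of the 129 lay within 5 kb of a protein-coding gene outside the family. Receptor genes are close copies of each other, and how the authors treated reads that match several copies is not given in the sources used here, so calls and absent calls at near-identical copies are uncertain.

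H3K27ac gave no peak at any of these genes. In each of the 8 lists 0 of 129 receptor genes were marked, which allows a share of up to 2.33% per list (limits and intervals cover counting error only). Over the 8 lists, 0 of 1032 gene and list pairs were marked, which allows up to 0.291%. In the same lists the share of all protein-coding genes marked was 44.6% in Fed 1, 49.9% in Fed 2, 49.2% in Fast 1 and 50.7% in Fast 2 without tetracycline. With tetracycline it was 44% in Fed 1, 49% in Fed 2, 50.7% in Fast 1 and 42.9% in Fast 2. At least 1 H3K27ac list marked 60.6% of all protein-coding genes, against none of the receptor genes.

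H3K9ac gave a few. Without tetracycline, list Fed 1 marked 1 of the 129 receptor genes (0.775%, against 41.1% of all protein-coding genes) and Fed 2 marked 2 (1.55%, against 51.7%). List Fast 1 marked 10 (7.75%, 95% exact Clopper-Pearson interval 3.78 to 13.8%, against 50.3%) and Fast 2 marked 3 (2.33%, against 43.3%). With tetracycline, Fed 1 marked 1 (0.775%, against 43.1%) and Fed 2 marked 3 (2.33%, against 49.5%). List Fast 1 marked 7 (5.43%, interval 2.21 to 10.9%, against 53.2%) and Fast 2 marked 4 (3.10%, against 43.1%). The 2 Fast lists numbered 1 thus stood highest, and in both tetracycline states each Fast list lay above both Fed lists, by at least 1 gene, so the groups did not overlap within a state. The share of all genes did not follow this order, since Fast 2 was at 43.3% and 43.1% while Fed 2 was at 51.7% and 49.5%.

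**Figure D1:**
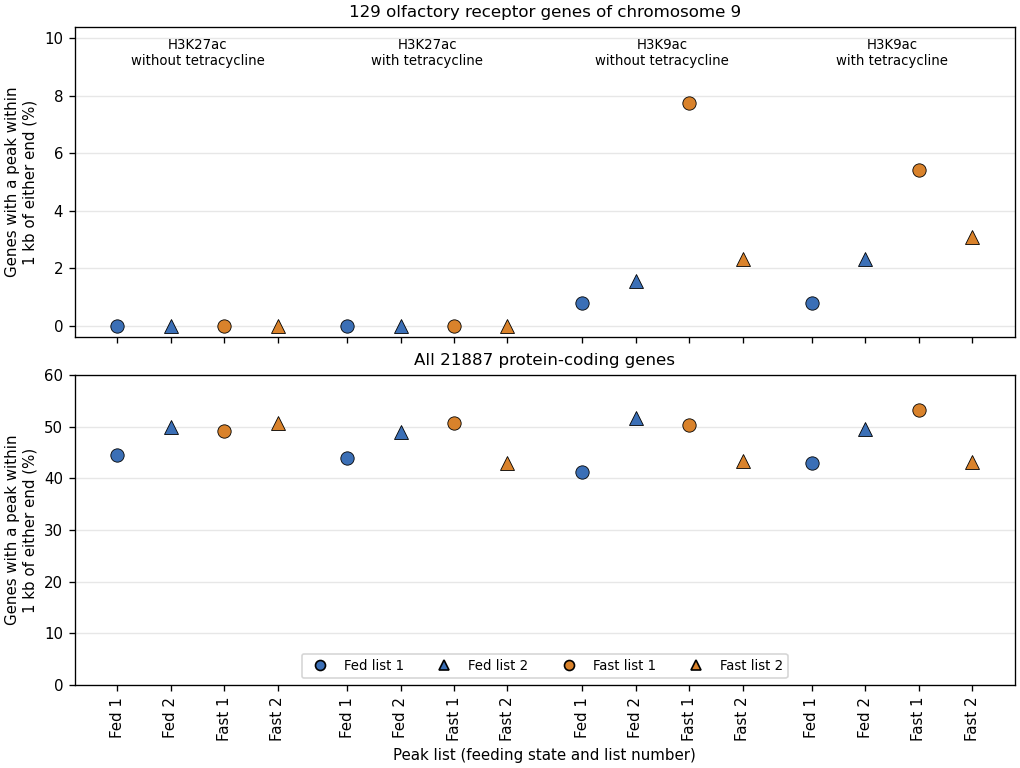
Share of genes with a peak within 1 kb of either end (percent, vertical axis) in each of the 16 peak lists, for the 129 receptor genes (top) and all 21887 protein-coding genes (bottom, on its own scale). Each symbol is 1 list, blue for Fed and orange for Fast, a circle for list 1 and a triangle for list 2. The 8 H3K27ac lists sit at 0 for the receptor genes, and the H3K9ac lists run from 0.775% to 7.75%, while the shares of all genes lie between 41.1% and 53.2%.

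The H3K9ac share was above the H3K27ac share in every pairing of lists, by a mean that was smaller than the widest gap between lists of a single sample. Over all lists, 31 of 1032 gene and list pairs were marked by H3K9ac (3.0%), 10.3-fold the limit given above for H3K27ac with its 0 of 1032. The 129 genes recur in each list, so these pairs are not independent. As counting error in the H3K9ac share is also left out, the ratio is not a lower bound. For the 977 receptor genes on other chromosomes, 284 of 7816 pairs were marked by H3K9ac and 87 of 7816 by H3K27ac. The mean share was 3.0 percentage points higher for H3K9ac (7.75% against 2.33% was the widest gap within a sample). An exact permutation test of the mark labels within the 4 groups (two-sided) gave p = 0.0015, the smallest this design allows, and 0.019 after Benjamini-Hochberg adjustment over the 12 tests made. The difference was 2.03 points without the 2 H3K9ac Fast lists numbered 1 (exact permutation p = 0.003). It was 0.87 points when every list of a mark was cut to the same number of top-scoring peaks (exact permutation p = 0.028). In the upper 0.5 of each list by score it was 1.84 points and did not pass (exact permutation p = 0.056). With the 2 lists of a sample averaged, 4 pairs of samples remain, and the exact p was 0.12, the smallest they allow.

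Feeding gave a difference that did not pass 0.05, which its 36 arrangements could not reach. For H3K9ac the mean share was 5.04% ± 3.84 (SD, n = 2 lists) in Fast and 1.16% ± 0.55 (SD, n = 2) in Fed without tetracycline. With tetracycline it was 4.26% ± 1.64 (SD, n = 2) in Fast and 1.55% ± 1.10 (SD, n = 2) in Fed. The mean difference, Fast minus Fed, was 3.29 percentage points (4.65% against 1.36%), with an exact permutation p = 0.056 (two-sided), the smallest that 36 arrangements allow, and an adjusted p of 0.33 by the same permutation test. Between lists numbered 1 the difference was 6.98 points without and 4.65 points with tetracycline. Between lists numbered 2 it was 0.775 points in both states, which is 1 gene. Without the 2 Fast lists numbered 1 the mean difference was 1.36 points (exact permutation p = 0.22). It was also 1.36 points with the same number of top-scoring peaks per list (exact permutation p = 0.056).

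The other protein-coding genes of chromosome 9 gave a yardstick for this contrast. The share of receptor genes minus the share of those genes was −49.1 points in Fast and −51.7 points in Fed for H3K9ac. The difference of 2.55 points had an exact permutation p = 0.5 (two-sided) and an adjusted exact p of 1. With the same number of top-scoring peaks per list it was 14.2 points (exact permutation p = 0.056, the smallest possible). In the upper 0.5 of each list by score it was 7.51 points (exact permutation p = 0.11). The receptor share alone differed by 1.36 and 3.68 points in these settings. What remains of 14.2 and 7.51 came from a lower share of the other chromosome 9 genes in Fast. For H3K27ac the same quantity was −55.1 in Fast and −54.2 in Fed, a difference of −0.96 points (exact permutation p = 0.78, adjusted 1).

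Tetracycline gave a smaller difference, which did not pass 0.05 either, and its 36 arrangements could not reach that level. The H3K9ac share was 2.91% with and 3.10% without it, a difference of −0.19 points (exact permutation p = 1, two-sided, adjusted 1). The feeding difference was 2.71 points with and 3.88 points without tetracycline, and the exact permutation test of that gap of −1.16 points gave p = 0.83 (adjusted 1). By list number the mean was 3.68% in lists 1 and 2.33% in lists 2, a gap of 1.36 points with an exact sign-flip permutation p = 0.62 (two-sided, adjusted 1, smallest possible 0.125). List 1 was below list 2 in both Fed samples and above it in both Fast samples, and this contrast was not tested. For H3K27ac each of these 4 contrasts was 0, with an exact permutation p of 1, because no receptor gene was marked.

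Single genes seldom came back in another list. Of the 129 genes, 101 had no peak in any list, 25 had a peak in 1 list and 3 in 2 lists. The 28 genes with any H3K9ac call were 21.7% of the family on this chromosome, against 74.8% of all protein-coding genes. Calls in 1 list only made up 19.4% of the receptor genes and 14.5% of all genes, and calls in at least 2 lists 2.33% against 60.3%. None was marked in all 8 H3K9ac lists, against 21.1% of all genes. Of the 31 calls, 24 came from Fast and 7 from Fed lists, and the 2 Fast lists numbered 1 gave 17 of them. Receptor genes marked only in Fast lists numbered 21 (16.3%, against 14% of all genes), and those marked only in Fed lists 6 (4.65%, against 4.97%), so both shares were close to the background. No receptor gene was marked by H3K9ac in all 4 Fast and no Fed lists (0.0777% of all genes) or the reverse (0.0411%), nor in all 4 lists of a tetracycline state and none of the other (0.0457% and 0.0411%).

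**Figure D2:**
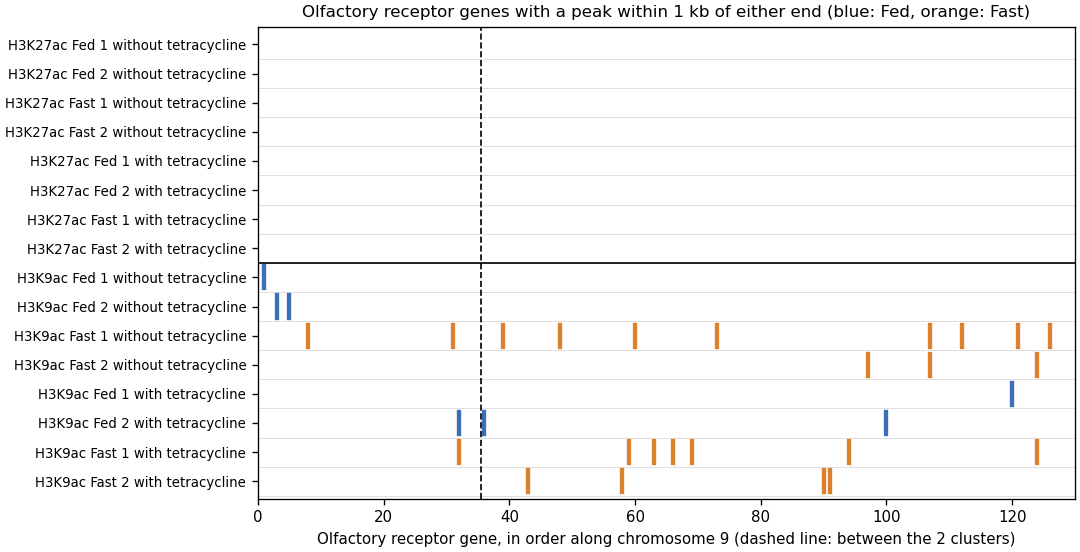
Each tick is a receptor gene (horizontal axis, order along chromosome 9, 1 to 129) with a peak within 1 kb of either end in the list named on the vertical axis, blue for Fed and orange for Fast. The 8 H3K27ac lists are empty, and 3 positions carry ticks in 2 of the H3K9ac lists.

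The 3 genes with 2 calls were Olfr872, Olfr963 and Olfr981, which encode odorant receptors. At Olfr963 (chr9:39669059-39669994), list Fast 1 without tetracycline had a 520 bp peak at chr9:39669276-39669795, and list Fast 2 without tetracycline a 478 bp peak at chr9:39669152-39669629. These peaks shared 354 bp inside the gene. Their scores, the authors' value per peak, were at percentiles 62.9 and 52.3 of their own lists. The other 6 H3K9ac lists and all H3K27ac lists had no peak there.

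At Olfr981 (chr9:40022395-40023327), list Fast 2 without tetracycline had a 535 bp peak (percentile 19.3) and list Fast 1 with tetracycline a 492 bp peak (percentile 52.6). They shared 12 bp. At Olfr872 (chr9:20237162-20260913), the longest receptor gene of the chromosome, the 2 peaks lay at opposite ends, 22840 bp apart. List Fast 1 with tetracycline had a 200 bp peak before its first annotated base (percentile 73.2), and list Fed 2 with tetracycline a 450 bp peak at its far end (percentile 48.0). Olfr872 was the only receptor gene with a call in both feeding states.

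The genes next in the ranking, by position, had 1 H3K9ac call each. Olfr24 had a 583 bp peak in Fed 1 without tetracycline, at percentile 3.65 of its list. Olfr829 and Olfr832 had peaks of 391 and 584 bp in Fed 2 without tetracycline, at percentiles 32.3 and 29.3. Olfr836, Olfr871 and Olfr876 had peaks of 200, 289 and 200 bp in Fast 1 without tetracycline, at percentiles 89.4, 59.6 and 77.5. Olfr160 had a 490 bp peak in Fed 2 with tetracycline, at percentile 31.9. Over the 31 peaks at receptor genes, 10 had the smallest width that any list holds, 200 bp, 7 were at least 500 bp wide and the widest was 584 bp. Their score percentiles ran from 2.38 to 89.9 with a median of 59.6, and 22 of the 31 overlapped the gene itself.

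The sequence before the genes was read next, because these marks gather at CpG-rich promoters in many cell types. RefSeq promoter windows (GRCm38.p6, 250 bases before to 50 after the annotated start) were matched for 108 of the 129 genes, in 109 windows. The 250 bases before the start are shown for the first 2 genes of the ranking that had an entry, for the first and last genes without a peak, and for Zfp317, a zinc finger gene that lies inside the first cluster and was marked in 11 of the 16 lists. Capitals mark CpG.
Olfr872, chr9:20236912-20237161, plus strand: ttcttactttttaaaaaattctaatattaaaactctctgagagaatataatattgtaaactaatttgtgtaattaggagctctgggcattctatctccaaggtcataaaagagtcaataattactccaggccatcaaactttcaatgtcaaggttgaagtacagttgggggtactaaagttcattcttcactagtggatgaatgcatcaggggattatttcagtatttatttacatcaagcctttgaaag
Olfr963, chr9:39668809-39669058, plus strand: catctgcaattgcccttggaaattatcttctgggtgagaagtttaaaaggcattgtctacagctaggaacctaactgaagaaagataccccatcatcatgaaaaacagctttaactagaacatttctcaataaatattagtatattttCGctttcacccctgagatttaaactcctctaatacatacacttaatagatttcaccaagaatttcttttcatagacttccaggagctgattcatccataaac
Olfr828, chr9:18816293-18816542, minus strand: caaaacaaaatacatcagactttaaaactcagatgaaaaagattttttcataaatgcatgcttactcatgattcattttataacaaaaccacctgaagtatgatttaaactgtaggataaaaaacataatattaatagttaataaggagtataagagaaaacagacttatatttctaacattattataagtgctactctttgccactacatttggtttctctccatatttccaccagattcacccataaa
Olfr986, chr9:40186829-40187078, plus strand: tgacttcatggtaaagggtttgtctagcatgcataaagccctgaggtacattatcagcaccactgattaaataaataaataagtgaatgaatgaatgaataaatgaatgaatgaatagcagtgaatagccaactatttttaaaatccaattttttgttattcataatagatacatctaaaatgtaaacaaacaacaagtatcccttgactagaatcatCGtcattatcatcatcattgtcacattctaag
Zfp317, chr9:19621841-19622090, plus strand: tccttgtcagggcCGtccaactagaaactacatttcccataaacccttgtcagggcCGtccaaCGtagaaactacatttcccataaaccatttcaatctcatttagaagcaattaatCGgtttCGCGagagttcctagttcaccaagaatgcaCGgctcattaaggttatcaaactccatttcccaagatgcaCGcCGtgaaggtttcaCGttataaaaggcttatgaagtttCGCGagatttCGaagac

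These 4 receptor windows held 0, 1, 0 and 1 CpG in that order, and the Zfp317 window shown held 13. A second annotated Zfp317 window, chr9:19622054-19622303, held 17. Over the 109 receptor windows of 300 bases the median GC content was 34.0% (24.7 to 50%) and the median number of CpG was 1 (0 to 8). In 835 windows of receptor genes on other chromosomes the medians were 35.3% and 1. In 20319 windows of the other protein-coding genes they were 57.0% and 14, and in 3938 windows of genes marked in all 16 lists 61.7% and 22. No receptor window of chromosome 9 had an observed to expected CpG ratio over 0.6, against 49.8% of the windows of other genes and 77.0% of those marked in every list. Receptor genes with a peak had a median GC content of 36% and those without 33.8%, each with a median of 1 CpG.

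These windows have a limit as promoters. In 68 of 109 (62.4%) an ATG stood directly at the annotated start, against 5.13% of the windows of other genes, so that many receptor genes are annotated from their first codon and their true start may lie elsewhere.

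Peaks reached such a window in 6 cases, all H3K9ac and each in a single list, at Olfr24, Olfr872, Olfr876, Olfr147, Olfr976 and Olfr983. The overlap was widest at Olfr976, where 290 of 300 bases lay under a 550 bp peak of list Fed 1 with tetracycline, and at Olfr147, where 286 of 300 lay under a 555 bp peak of list Fast 1 without tetracycline. These 2 windows were chosen after their values were seen, and their 250 bases before the start are shown to compare the CpG-richest receptor window with one that has none.
Olfr976, chr9:39961045-39961294, minus strand: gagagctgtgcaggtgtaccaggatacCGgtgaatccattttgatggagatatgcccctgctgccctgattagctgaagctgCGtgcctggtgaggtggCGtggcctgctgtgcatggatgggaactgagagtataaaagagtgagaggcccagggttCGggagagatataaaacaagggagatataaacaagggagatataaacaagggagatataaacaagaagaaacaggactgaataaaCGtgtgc
Olfr147, chr9:38401461-38401710, plus strand: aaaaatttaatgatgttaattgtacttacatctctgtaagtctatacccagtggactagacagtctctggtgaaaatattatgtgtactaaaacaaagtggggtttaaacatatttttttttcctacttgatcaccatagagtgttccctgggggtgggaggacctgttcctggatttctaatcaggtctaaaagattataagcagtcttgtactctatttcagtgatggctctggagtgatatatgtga

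This Olfr976 window had a GC content of 50% with 8 CpG in its 300 bases, the highest values among the 109, and the Olfr147 window 34.0% with 0. A second annotated Olfr976 window, with chr9:39957070-39957319 before its start, had 37.3% with 1 CpG. The scores of the 2 peaks were at percentiles 27.3 and 2.38 of their lists.

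Peak counts over the whole clusters were, for H3K9ac, also highest in the 2 Fast lists numbered 1. In that mark, Fed 2 and Fast 2 without tetracycline tied at 12. For H3K27ac without tetracycline the clusters held 2 peaks in Fed 1, 2 in Fed 2, 27 in Fast 1 and 4 in Fast 2. With tetracycline they held 2 in Fed 1, 4 in Fed 2, 6 in Fast 1 and 3 in Fast 2. For H3K9ac without tetracycline the clusters held 4 peaks in Fed 1, 12 in Fed 2, 77 in Fast 1 and 12 in Fast 2. With tetracycline they held 5 in Fed 1, 29 in Fed 2, 75 in Fast 1 and 37 in Fast 2. The 3 lists with the most peaks in all, Fast 1 without tetracycline for each mark and Fast 1 with tetracycline for H3K9ac, also had the 2 highest H3K9ac counts and the highest H3K27ac count.

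Per length, the clusters held 0.99 to 18.97 H3K9ac peaks per Mb and 0.49 to 6.65 H3K27ac peaks per Mb. These values include peaks at Zfp317 and Vwa5a, genes inside the clusters that are not olfactory receptors. In the H3K27ac lists at 0.49 per Mb, the peaks at these genes were the only cluster peaks. The rest of chromosome 9 held 8.31 to 45.1 and 14.3 to 31.6 per Mb. The 34.3 Mb of the chromosome that lay over 50 kb from any protein-coding gene held 1.14 to 28.1 H3K9ac and 2.24 to 13.3 H3K27ac peaks per Mb. In each of the 16 lists the density in the receptor clusters was below that of these gene-free stretches.

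**Figure D3:**
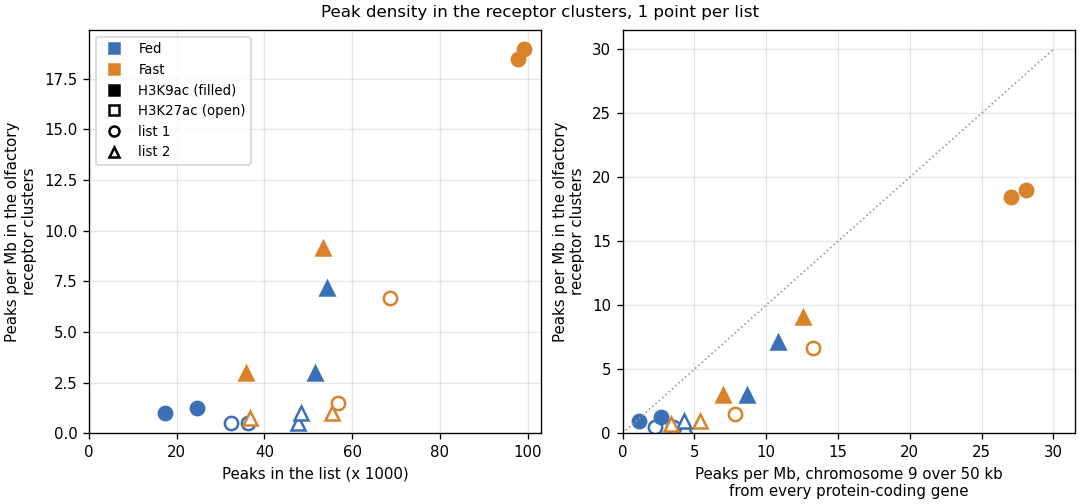
Peaks per Mb in the receptor clusters (vertical axes) against the number of peaks in the list in units of 1000 (left) and against peaks per Mb in chromosome 9 over 50 kb from every protein-coding gene (right, dotted line at equality). Each point is 1 list, and all 16 lie below the dotted line, with the 2 H3K9ac Fast lists numbered 1 highest at 18.5 and 18.97 per Mb.

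Narrow peaks went with some of these lists. Peaks of exactly 200 bp made up 28 of the 77 cluster peaks in H3K9ac Fast 1 without tetracycline, 41 of 75 in Fast 1 with tetracycline and 19 of 37 in Fast 2 with tetracycline. In H3K27ac they were 13 of the 27 cluster peaks in Fast 1 without tetracycline and at most 1 in each of the other 12 lists. Over whole lists the same 4 had 17.2%, 20.3%, 31.2% and 11.8% such peaks. The feeding difference was 0.19 points when only peaks of at least 500 bp were counted (exact permutation p = 1), and its value with equal numbers of peaks is given above.

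Peak bases at gene ends and in the rest of the clusters were then compared, and the difference did not pass the test. Averaged over the 8 samples, 0.161% of bases within 1 kb of a receptor gene end lay in a peak and 0.150% of the cluster bases away from every gene end. The difference of 0.011 percentage points had an exact sign-flip permutation p = 0.84 (two-sided, adjusted 1, smallest possible 0.0078). That test pooled the marks, whose lists mostly went opposite ways, so it does not show that ends and the rest were alike. Ends were above the rest in 6 of the 8 H3K9ac lists and in none of the 8 H3K27ac lists. For H3K27ac this direction was set by the 0 of 129 genes marked, as no peak base lay at a receptor gene end. In H3K27ac Fed 1 and Fed 2 without and Fed 1 with tetracycline, the peak bases away from gene ends all belonged to the peak at Vwa5a. At the ends of the other protein-coding genes of chromosome 9, 11.98% to 19.2% of bases lay in a peak.

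The distance allowed from a gene end changed the counts most in the H3K9ac Fast lists numbered 1. For H3K9ac Fast 1 without tetracycline, 2 receptor genes overlapped a peak directly at an end, 10 had one within 1 kb, 22 within 5 kb and 112 within 50 kb. With tetracycline these counts were 1, 7, 26 and 116. In H3K9ac Fast 2 they were 0, 3, 4 and 34 without tetracycline and 0, 4, 13 and 82 with it. In H3K9ac Fed 1 they were 1, 1, 2 and 14 without tetracycline and 1, 1, 2 and 16 with it, and in Fed 2 they were 1, 2, 4 and 40 without and 0, 3, 9 and 65 with it. Without tetracycline, Fed 2 thus lay above Fast 2 at 50 kb. In H3K27ac Fast 1 without tetracycline they were 0, 0, 6 and 52, and in the other 7 H3K27ac lists at most 1 gene had a peak within 5 kb. The median distance from a receptor gene to its nearest peak ran from 15.97 kb in H3K9ac Fast 1 without tetracycline to 319 kb in H3K27ac Fed 1 without tetracycline.

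**Figure D4:**
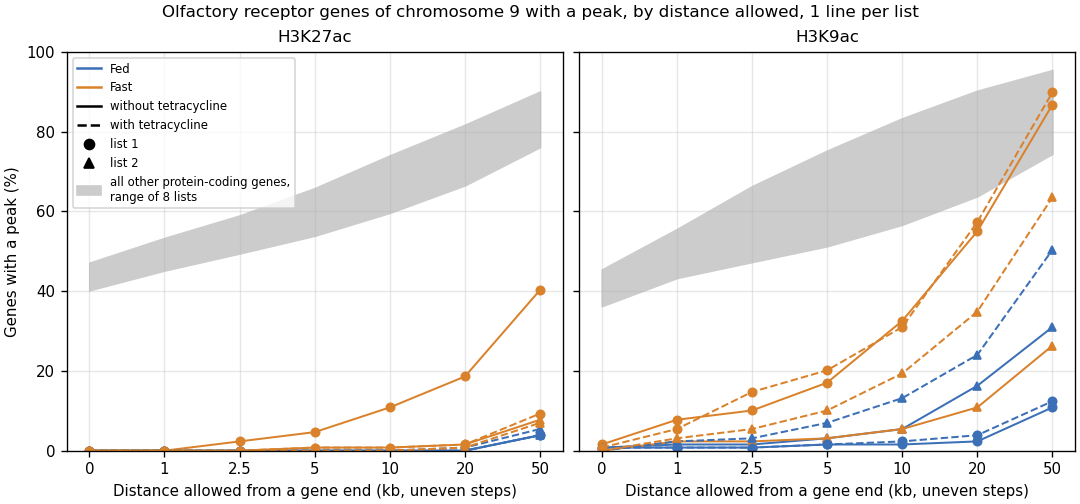
Share of the 129 receptor genes with a peak (percent, vertical axis) by the distance allowed from a gene end (horizontal axis, kb, in uneven steps), 1 line per list, with the range of all other protein-coding genes over the 8 lists of the mark in grey. At 1 kb every line lies below the grey band, and at 50 kb the 2 H3K9ac Fast lists numbered 1, with 112 and 116 genes, lie within it. Each stays below the other genes of its own list, at 86.8% against 95.5% without and 89.9% against 95.1% with tetracycline.

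Few merged regions within the clusters recurred between lists. Merged over the lists of a mark, the clusters held 237 H3K9ac regions, of which 231 (97.5%) came from a single list, against 84.4% of H3K9ac regions genome-wide. For H3K27ac there were 30 regions, 26 (86.7%) from a single list, against 53.1% genome-wide. List Fast 1 without tetracycline held 27 H3K27ac cluster peaks, against 2 to 6 in each other list. Most of the single-list H3K27ac regions were its own, and most cluster peaks of the other H3K27ac lists lay in recurring regions. Regions in at least 4 lists numbered 2 for H3K9ac (5.56% genome-wide) and 4 for H3K27ac (32.8% genome-wide). A further 4 H3K9ac regions came from 2 lists: those at Olfr963 and Olfr981, chr9:37931185-37931827 (11.6 kb from Olfr878) and chr9:38867735-38868143 (9.04 kb from Olfr926). Other genes held 2 of the sites seen in at least 4 lists. At the start of Zfp317 lay a region marked in 7 H3K27ac and 4 H3K9ac lists. At the start coordinate of Vwa5a, which encodes a von Willebrand factor A domain protein, lay one marked in 7 lists of each mark. The other protein-coding genes inside the clusters, AW551984, Tmem225 and Olfr911-ps1 (listed as protein-coding but named as a pseudogene, so not in the set), were marked in no list.

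The remaining H3K27ac regions of that kind lay away from any receptor gene of the set, and were singled out after their values were seen. The region chr9:19092830-19093887, 27.1 kb from Olfr836, had a peak in Fast 2 without tetracycline and in Fed 2, Fast 1 and Fast 2 with tetracycline. The region chr9:39286860-39287801 was present in every one of the 4 Fast lists of H3K27ac and in none of the Fed lists, a pattern that 0.4% of H3K27ac regions genome-wide showed. It lay 28.2 kb from Olfr945 and 0.123 kb from Olfr947-ps1, a receptor pseudogene outside the set. Its peaks were 566, 821, 760 and 928 bp wide in Fast 1 and Fast 2 without and Fast 1 and Fast 2 with tetracycline, at percentiles 78.2, 8.84, 36.8 and 46.1 of their lists. For H3K9ac, 1 list had a peak there, and it was Fed 1 without tetracycline. As 1 of 30 regions, it is a description of these lists.

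Other sensory receptor families were counted in the same way. Olfactory receptor genes on other chromosomes were marked at 0.409% to 2.35% per H3K27ac list and 0.409% to 8.29% per H3K9ac list. Their 2 highest H3K9ac lists were again Fast 1 with tetracycline (8.29%) and Fast 1 without (7.47%). Vomeronasal receptors, the pheromone detectors, had 0.283% to 2.27% of 353 genes marked for H3K27ac and 0.85% to 5.95% for H3K9ac. Taste receptors had at most 1 of 38 genes marked by H3K27ac in a list (2.63%) and 2.63% to 5.26% by H3K9ac. Trace amine receptors, which detect volatile amines, had 1 of 15 genes marked in every H3K27ac list (6.67%) and 0 to 26.7% per H3K9ac list, and 6 of the 15 (40%) had a peak in at least 1 H3K9ac list. Ribosomal protein genes, which every cell uses, were marked at 83.8% to 96.3% of 80 genes for H3K27ac and 82.5% to 97.5% for H3K9ac. A count of 0 for H3K27ac was also found for the olfactory receptor genes of chromosomes 8 (5 genes), 13 (13), 15 (9), 16 (36) and X (6), so it was not seen on chromosome 9 alone.

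**Figure D5:**
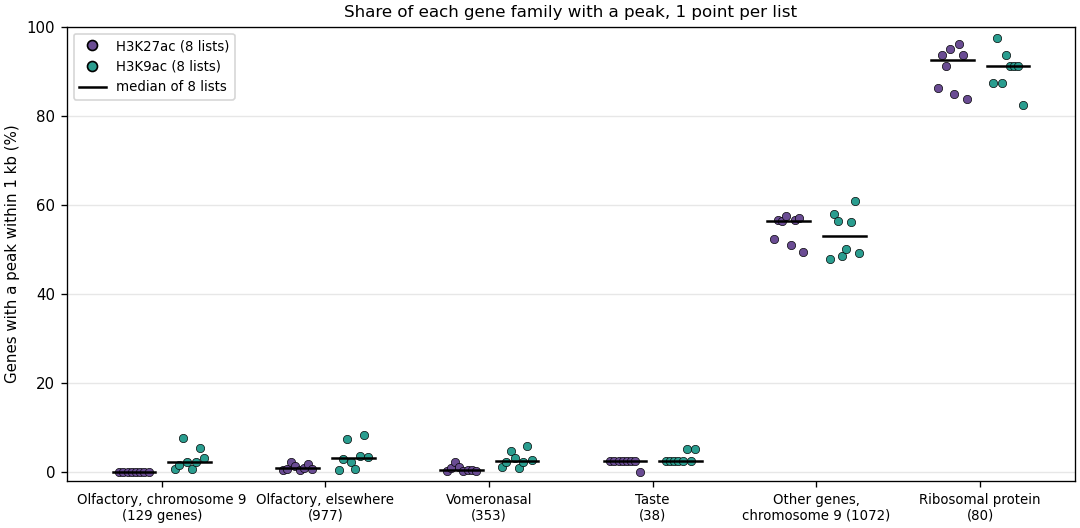
Share of each gene family with a peak within 1 kb of a gene end (percent, vertical axis), 1 point per list, with a bar at the median of the 8 lists of a mark. The olfactory, vomeronasal and taste receptor families lie at or below 8.29% in every list, and ribosomal protein genes lie above 82%.

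Genes that serve olfactory receptors in the nose were counted from fixed lists. Of 10 signalling genes, 2 to 4 were marked per H3K27ac list and 1 to 7 per H3K9ac list. Ric8b, an exchange factor for the olfactory G protein, was marked in 8 lists of each mark, and Cnga4, a subunit of the olfactory ion channel, in 8 H3K27ac and 6 H3K9ac lists. Gnal, the olfactory G protein itself, was marked in no H3K27ac and 3 H3K9ac lists, Adcy3, the adenylyl cyclase, in 0 and 2, and Cnga2, the main channel subunit, in none of either. Of the 3 export genes, which carry receptors to the cell surface, Rtp2 was marked in no list, Rtp1 in 1 H3K27ac and 3 H3K9ac lists, and Reep1 in 1 of each. Of 6 factors used in the choice of a receptor, Lhx2 and Ebf1, which bind receptor enhancers, were marked in no list. Kdm1a, a histone demethylase, was marked in 8 lists of each mark, and Lbr, a nuclear envelope protein, in 8 H3K27ac and 7 H3K9ac lists. Ldb1 was marked in 1 and 0 lists and Emx2 in 0 and 2.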

How the data were processed

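CUT&Tag peaks of 2 histone marks were analysed in 8 samples of mouse small intestinal crypts, 2 deposited lists each. The authors called peaks separately in each list. Each deposited list gives chromosome, start, end, name and a score, at least 50 in every list, whose scale is not given in the sources used here, so it served only to rank peaks within a list. Per the submitters' processing notes, FastQC, Bowtie and SAMtools were used with build mm10 (GRCm38), and the peak names carry MACS, per the file contents. Deposited names call the libraries downsampled. Caller version, cutoff, use of IgG and read depth are not given in the sources used here.

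Gene coordinates, names and promoter windows came from RefSeq (GRCm38). Strand was not used, so both gene ends counted, within 1 kb. Values per list were compared by exact two-sided permutation tests, 12 in all, with Benjamini-Hochberg adjustment in Python 3.11.15 with pandas 2.3.3 and numpy 2.4.6. Tests of list number and of gene ends flipped signs over samples, and the others permuted lists. The counting was tested on simulated data. Named genes were the 10 with most lists (ties by H3K27ac lists, then position), any gene split fully by feeding or tetracycline, and the first and last without a peak. The genes and lists were chosen with earlier results of these data known. Alternatives covered distance, score, width, peak number, gene set and left-out lists. List numbers are not given as pairs by the labels and only name lists across samples. Enteroendocrine markers (1 to 3 of 10 marked per H3K27ac list, 1 to 8 per H3K9ac list) were also counted.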

Additional observations from a re-analysis of the deposited data

Results flagged for a closer look

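In 3 cases a list stood far from the other 3 lists of its feeding state and mark. The test covered 24 groups of 4 lists, and chance alone picks out about 1 group in 20. Peak density in the receptor clusters was 6.65 per Mb in H3K27ac list Fast 1 without tetracycline, against 0.74 to 1.48 in the other Fast lists of the mark. In the same list 0.1997% of the cluster bases away from gene ends lay in a peak. Peak density in H3K27ac list Fed 2 with tetracycline was 0.9857 per Mb, which is 4 peaks against 2 in each other Fed list. Those 4 peaks lay at Zfp317, at Vwa5a (2 peaks, of 375 and 839 bp) and in the region chr9:19092830-19093887. In each other Fed list the 2 peaks lay at Zfp317 and Vwa5a, which are not receptor genes.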

How the results depend on the processing

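The H3K9ac share stayed above the H3K27ac share under the alternatives run, between 0.58 and 7.17 points. It missed 0.05 in the upper 0.5 of each list by score (1.84, exact permutation p = 0.056), with lists of a sample averaged (3.0, exact p = 0.12, added after seeing the data) and with lists of a single number, at 2.33 to 3.68 points over the left-out lists, where 4 pairs cannot reach it. The H3K9ac feeding difference lay between 0.775 and 5.81 over left-out lists and was 0 when a peak had to touch the gene end. With peaks of at least 500 bp it was 0.19, with equal numbers of top-scoring peaks 1.36, at 2.5 kb 6.59 and at 5 kb 9.30. None of these passed, and none could, since 36 arrangements give 0.056 at the smallest and left-out lists leave fewer arrangements. With the list number as a replicate block it was 3.29 (exact permutation p = 0.12, the smallest possible). As 0.125 is the smallest p with the block, no call among the feeding, interaction, tetracycline and chromosome-relative contrasts could change. The block was not run for the marks or for gene ends.

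None of the contrasts named next passed its test, so their signs are descriptions. Apart from gene ends, where 0.0078 is the smallest possible p, none of these tests could reach 0.05. The H3K27ac contrasts of 0 became 0.58, −1.16, 0.58 and −0.58 at 2.5 kb (feeding, interaction, list number, tetracycline), 1.55, −2.33, 1.16 and −1.16 at 5 kb, and 0.79, −0.50, 0.25 and −0.25 with receptor genes of all chromosomes. The H3K9ac interaction was 0.39 in the upper 0.5 by score, 0 when a peak had to touch the end, 3.10 at 2.5 kb and at 5 kb, 0.32 with all chromosomes, −3.88 to 1.55 over left-out lists and 0.39 without both Fast lists numbered 1 (added after seeing the data). The H3K9ac tetracycline difference was 0.19, 2.33, 3.49 and 0.61 in the upper 0.5 by score, at 2.5 kb, at 5 kb and with all chromosomes, −1.55 to 1.16 over left-out lists and 0.58 without both Fast lists numbered 1. The list number gap was 0 to 2.33 over left-out lists and −1.16 without both. Against the other genes of the chromosome, the H3K27ac feeding difference was 2.99 with equal numbers of top-scoring peaks and −5.08 to 3.17 over left-out lists. That of H3K9ac was 14.2 with equal numbers of top-scoring peaks and 7.51 in the upper 0.5 by score, of which the receptor share alone gave 1.36 and 3.68. It was −3.74 when whole genes extended by 1 kb were searched and −3.89 to 8.98 over left-out lists. Gene ends minus the rest of the clusters was −0.0061 with peaks of at least 500 bp, −0.0049, −0.0236 and −0.0231 at 0, 2.5 and 5 kb, and −0.0052 to 0.0266 over left-out lists. The cause of these changes was not tested.

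Read depth is unknown, and with 2 lists per group and 1 sample each, feeding, library and list size cannot be told apart.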
